A study of Mus musculus with 6 samples.

Results

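Genes that mark the cortical epithelium of the thymus were followed in cells sorted as medullary epithelium, with and without Aire. The 6 genes were Enpep, Cd83, Tbata, Prss16, Ly75 and Dll4, chosen by name as cortical genes and each read from the 1 probe set that carries its symbol, of 19938 genes with such a probe set. The cells were CD45-negative, intermediate for Ly51 and high for MHC class II, and came from (B6xNOD)F1 mice of 4 to 6 weeks. The 3 control samples were labelled Aire WT and the 3 others Aire KO, given as Aire-/- on that background, so all 6 shared the F1 background and differed by label in Aire alone. Each sample gave 1 array and carries a replicate number, so n = 3 per group throughout. The sample titles do not say whether a replicate was 1 mouse or a pool of mice. Each replicate is called a mouse below, and the SD is the spread between replicates. So few arrays limit the precision.

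The thymic cortex and medulla are built by different epithelial cells. Cortical cells induce the T lineage through the Notch ligand Dll4 and present peptides made by an unusual set of proteases, of which Prss16 is one, so that thymocytes with useful receptors survive. Medullary cells then display proteins of other organs, many of them under the control of Aire, and remove or divert self-reactive thymocytes. Enpep encodes Ly51, the surface antigen by which the 2 kinds of cell are told apart in sorting, and the antigen used for the gate here.

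Values are log2 intensities, and a difference is the mean of the KO mice minus the mean of the WT mice. The test took in genes brighter than 5.97 (the 40th percentile over the whole table) on at least 3 arrays. This held for 13925 genes, and all 6 cortical genes lay above that level on every array. The signal of Aire itself was 12, 11.92 and 11.99 in the WT mice and 12.38, 12.41 and 12.42 in the mice labelled KO, and thus higher in every mouse of the latter. The deleted part of the gene is not stated and 1 probe set summarises its transcript, so the array neither checks nor contradicts the genotypes: WT and KO stand for the labels, here and in every direction given below. Array medians ran from 92.9 to 98.2 on the linear scale, and the median difference over all tested genes was 0.02. All 11 genes listed as medullary markers that have a probe set were bright enough to test, among them Epcam, Krt5 and Krt14. So were the 6 cortical genes and 13925 of all 19938 genes. Passing this filter therefore does not check the label of medullary epithelium. Genes of a wider cortical list were measured as well: of 19 with a probe set, 14 were bright enough to test and 4 lay under 5.97 on every array. Among those 4, the cortical proteasome gene Psmb11 and the cortical chemokine receptor gene Ackr4 were at 5.61 ± 0.06 and 5.65 ± 0.14 in WT and 5.57 ± 0.02 and 5.62 ± 0.11 in KO (SD, n = 3). The 6 genes are described below as transcripts measured in cells of the medullary gate.

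Of the 6 genes, 3 were higher in the KO mice, 1 was lower and 2 did not pass the test (limma, Benjamini-Hochberg threshold 0.05). Enpep fell, Cd83, Tbata and Prss16 rose, and Ly75 and Dll4 were not called. Over all tested genes 26.1% were called, 12% as higher and 14.1% as lower. The groups did not overlap for 4 of the 6 genes, against 42.4% of all tested genes. The median difference of the 6 was 0.26. With so few genes, these shares describe the set and were not tested against the background.

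**Figure D1:**
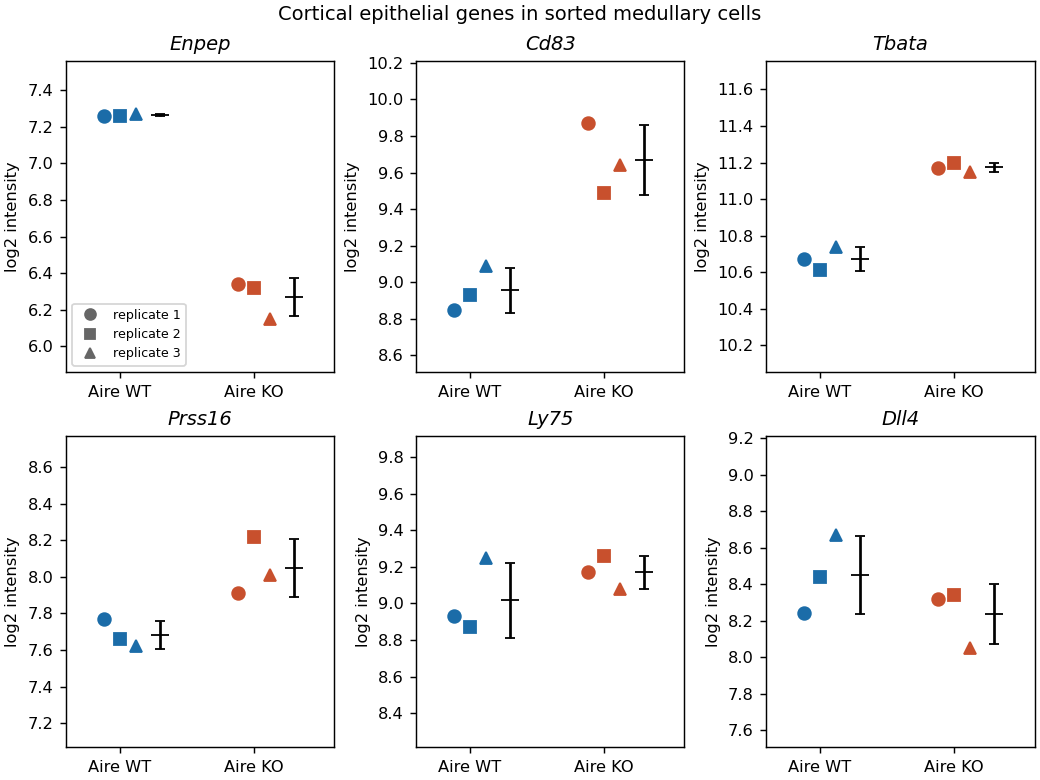
Log2 intensity of the 6 cortical genes (panels, each with an axis of the same span) in the 3 Aire WT and 3 Aire KO mice, with a marker shape per replicate number and the mean and SD of each group beside the points. Enpep separates the groups downward, from about 7.26 to 6.27, Cd83, Tbata and Prss16 separate them upward, and Ly75 and Dll4 overlap.

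Enpep encodes aminopeptidase A, a zinc enzyme of the cell surface that removes acidic residues from the amino end of peptides such as angiotensin. Its log2 intensity was 7.26, 7.26 and 7.27 in the WT mice and 6.34, 6.32 and 6.15 in the KO mice. Every KO mouse lay below every WT mouse, and the WT mice hardly differed from each other. The difference was -1.0 (SE 0.08, limma adjusted p = 6.4e-06), a 1.99-fold lower intensity in KO, with a 95% interval from -1.18 to -0.81. It ranked 296 among the 13925 differences counted from the lowest, just outside the 294 genes that were called lower by 2-fold or more. Without any 1 array the difference stayed between -1.03 and -0.94, and it was called each time. All samples were sorted through a gate set on the protein of this gene, so the value belongs to cells already chosen for an intermediate level of it. How cells were spread within the gate was not analysed here. In sorted bulk cells, fewer cells of one kind and less RNA per cell cannot be told apart.

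The 250 bases before the annotated start of Enpep are shown because this gene had the largest difference of the 6, and those of Tbata because it moved the other way with the smallest spread of the 3 genes that rose. Sequences are those of RefSeq on GRCm38.p6, written 5′ to 3′ on the strand of the gene. Capitals mark matches to GACGC, the core known to be bound by the thymic epithelial factor Foxn1, and to TATAAA, the consensus of the TATA box, both searched on both strands.
Enpep, chr3:129332750-129332999, minus strand: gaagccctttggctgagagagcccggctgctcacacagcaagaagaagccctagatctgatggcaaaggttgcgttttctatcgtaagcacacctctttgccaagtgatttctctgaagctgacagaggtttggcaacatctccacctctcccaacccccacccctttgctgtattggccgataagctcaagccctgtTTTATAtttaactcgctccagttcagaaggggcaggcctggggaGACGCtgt
Tbata, chr10:61171714-61171963, plus strand: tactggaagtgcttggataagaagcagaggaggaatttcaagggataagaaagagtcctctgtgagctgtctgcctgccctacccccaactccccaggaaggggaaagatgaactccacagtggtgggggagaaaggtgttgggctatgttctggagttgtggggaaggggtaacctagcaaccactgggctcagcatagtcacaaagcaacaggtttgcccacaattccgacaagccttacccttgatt
The Enpep window held 1 match to GACGC, which begins 8 bases before the start. It also held 1 match to TATAAA on the opposite strand, beginning 52 bases before the start. The Tbata window held neither. Among 32851 windows of the same length and position, 22.6% held GACGC on either strand and 12.4% held TATAAA. The windows of Ly75 and Dll4 held neither motif in these 250 bases. They were rich in G and C, at 66.8% and 65.6%, with 17 and 14 CpG pairs, whereas Enpep had 52.4% with 6 pairs and Tbata 51.6% with 1. The medians over all windows were 52.4% and 6 pairs. A match describes letters in this window and says nothing of binding in these cells. In all, 4 of the 6 genes matched the sequence table, and Cd83 and Prss16 are named only.

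Cd83 encodes a surface glycoprotein that keeps MHC class II on the cell by opposing the ubiquitin ligase Marchf8, and is needed in cortical epithelium for the selection of CD4 T cells. Its values were 8.85, 8.93 and 9.09 in WT and 9.87, 9.49 and 9.64 in KO. The lowest KO mouse lay above the highest WT mouse. The difference was 0.71 (SE 0.11, limma adjusted p = 0.00063), a rise of 1.64-fold with a 95% interval from 0.47 to 0.95, and the 210th highest of all tested differences. Cd83 is also made by mature dendritic cells and activated B cells. Of 5 tested dendritic cell markers, 2 rose and 0 fell, Batf3 by 0.64 (limma adjusted p = 0.0003) and Zbtb46 by 0.44 (0.0044), while Flt3 was at -0.15. No other of the 5 had an unadjusted p under 0.05. The shares called over all tested genes were 12% higher and 14.1% lower. Itgax, Clec9a, Siglech, Cd209a and Itgae lay under 5.97 on every array. The summed intensity of the dendritic cell list ran from 1776 to 1879 in WT and from 1993 to 2191 in KO. Sums here and below are on the linear scale, so the brightest gene of a list weighs most. In the dendritic cell list this was Ccr7, at 9.96 ± 0.05 in WT and 10.14 ± 0.15 in KO (SD, n = 3), which was not called.

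Of 6 tested B cell markers, 4 rose and 1 fell, beside 12% higher and 14.1% lower over all tested genes. Cr2 rose from 8.42 ± 0.14 to 9.45 ± 0.20, Blk by 0.47, Pax5 by 0.31 and Cd79b by 0.24, and Fcer2a fell by 0.66 from 9.60 ± 0.21 to 8.94 ± 0.05 (SD, n = 3). With either WT replicate 1, KO replicate 1 or KO replicate 2 left out, 2 were called higher. Cd79b lost its call in 7 of 15 alternative fits, and Pax5 in 4 of the 14 in which it was tested. Ms4a1, Cd79a and Cd22, which define B cells, lay under 5.97 on every array, Ms4a1 at 5.19 ± 0.17 in WT and 4.72 ± 0.06 in KO. The summed intensity of the B cell list ran from 1746 to 2018 in WT and from 1904 to 2137 in KO. The part of such cells in the rise of Cd83 was not tested.

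Tbata encodes a stromal protein of the thymus, also called Spatial, that restrains the growth of thymic epithelium by binding the Nedd8-activating enzyme subunit Uba3. Its values were 10.67, 10.61 and 10.74 in WT and 11.17, 11.20 and 11.15 in KO. The groups lay well apart and the mice of each group close together. The difference was 0.50 (SE 0.08, limma adjusted p = 0.00079), a 1.42-fold rise with a 95% interval from 0.33 to 0.67, and it stayed between 0.47 and 0.53 without any 1 array.

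Prss16 encodes the thymus-specific serine protease, which cortical cells use to make peptides for class II. Its values were 7.77, 7.66 and 7.62 in WT and 7.91, 8.22 and 8.01 in KO. The groups did not overlap, though the lowest KO mouse lay only a little above the highest WT mouse. The difference was 0.36 (SE 0.10, limma adjusted p = 0.018), a 1.28-fold rise with a 95% interval from 0.15 to 0.57. The call rested on the highest KO mouse: without KO replicate 2 the difference was 0.28 (limma adjusted p = 0.063).

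Ly75 encodes DEC-205, an endocytic receptor of cortical epithelium and dendritic cells that takes up material for presentation. Its values were 8.93, 8.87 and 9.25 in WT and 9.17, 9.26 and 9.08 in KO. The WT mouse with replicate number 3 lay among the KO mice, so the groups overlapped. The difference was 0.16 (SE 0.11, limma adjusted p = 0.31), with a 95% interval from -0.08 to 0.39. Without WT replicate 3 it was 0.27 and passed the test (limma adjusted p = 0.046), and without any other array it lay between 0.08 and 0.20 and did not pass.

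Dll4 encodes the ligand that engages Notch1 on incoming progenitors and commits them to the T lineage. Its values were 8.24, 8.44 and 8.67 in WT and 8.32, 8.34 and 8.05 in KO. The groups overlapped, and the spread among the WT mice (SD 0.22) stood beside a median SD of 0.11 over all tested genes. The difference was -0.22 (SE 0.12, limma adjusted p = 0.20), with a 95% interval from -0.48 to 0.05, and it was not called without any 1 array. Endothelial cells also make Dll4. Of 4 tested endothelial markers 0 were called by limma (1 without WT replicate 2 or with array weights) and 1 had an unadjusted p under 0.05, with Pecam1 at -0.26 and Cdh5 at -0.13. Kdr, Emcn and Tie1 lay under 5.97 on every array. The summed intensity of that list ran from 476.9 to 524.1 in WT and from 460.2 to 484.6 in KO, and its part in the values of Dll4 was not tested.

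Within the groups, single mice tended to stand at the same end for several of the 6 genes. WT replicate 3 was the highest WT mouse for 5 of the 6 genes and the lowest for Prss16. KO replicate 2 was the highest KO mouse for 4 of them, and KO replicate 3 the lowest for 4. These orders are descriptions of single mice, and for Enpep and Tbata they rest on small gaps. How often each mouse stood at either end over all tested genes was not counted, so the orders are not shown to be particular to the 6 genes.

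**Figure D2:**
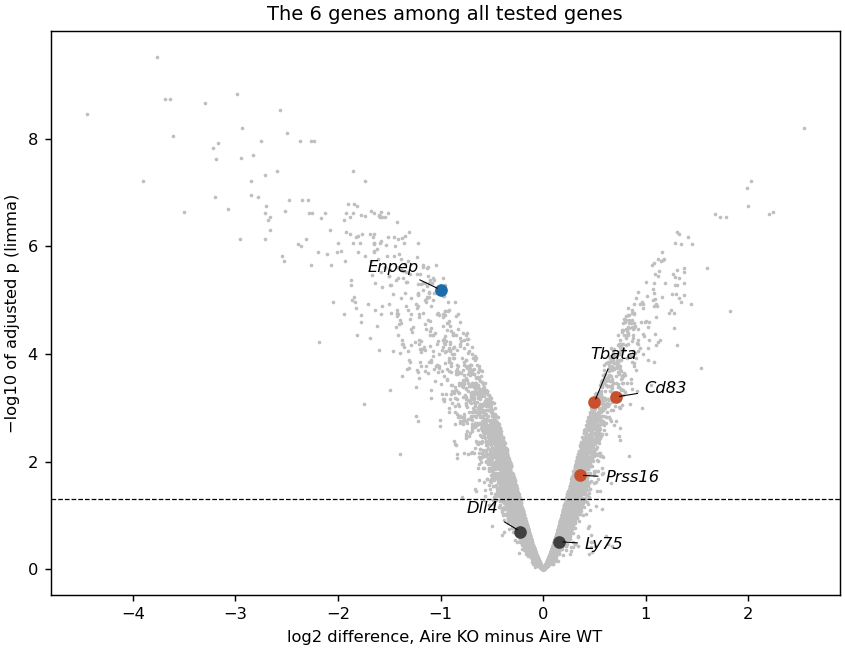
Each grey point is 1 of 13925 tested genes, placed by its log2 difference, KO minus WT, and by −log10 of its limma adjusted p, with the dashed line at the threshold of 0.05. Enpep lies on the arm of genes lower in KO at -1.0, Cd83, Tbata and Prss16 on the other arm between 0.36 and 0.71, and Dll4 and Ly75 under the line.

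The other genes known from cortical epithelium moved both ways as well. Of 19 listed genes with a probe set 14 were tested, 2 rose, 3 fell and 9 did not pass, with a median difference of -0.09 against 0.02 over all tested genes. Ctsl, the cathepsin that degrades the invariant chain in cortical cells, fell from 10.48 ± 0.07 to 9.75 ± 0.19, a difference of -0.72 (SE 0.10, limma adjusted p = 0.0004). Slc46a2, a transporter gene also known as TSCOT, fell from 8.50 ± 0.15 to 7.96 ± 0.14, and Six4, a factor of pharyngeal pouch development, from 8.37 ± 0.14 to 8.02 ± 0.08. Ccl25, a chemokine for thymocyte progenitors, rose from 11.26 ± 0.02 to 11.76 ± 0.06, and Kitl, the ligand of the progenitor receptor Kit, from 6.35 ± 0.13 to 6.89 ± 0.27 (SD, n = 3). Leaving out KO replicate 3 ended the call of Six4 (limma adjusted p = 0.081). The shares called, 14.3% higher and 21.4% lower, stand beside 12% and 14.1% of all tested genes.

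Foxn1, the factor on which Dll4, Ccl25 and Prss16 are known to depend, was at 9.97 ± 0.28 in WT and 9.95 ± 0.17 in KO, a difference of -0.02 (SE 0.14, limma adjusted p = 0.94). The sign of that difference turned in 3 of the alternative fits. The keratin genes Krt8 and Krt18, rich in cortical cells but made by medullary cells too, were at 0.10 and 0.16, neither called, as was Il7, the cytokine for early thymocytes, at -0.28 (limma adjusted p = 0.093). Foxn1, Krt8, Krt18 and Il7 were named after their values were seen. Psmb11, Ackr4, Hoxa3, Bmp4 and Cxcl12 were too dim to test.

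**Figure D3:**
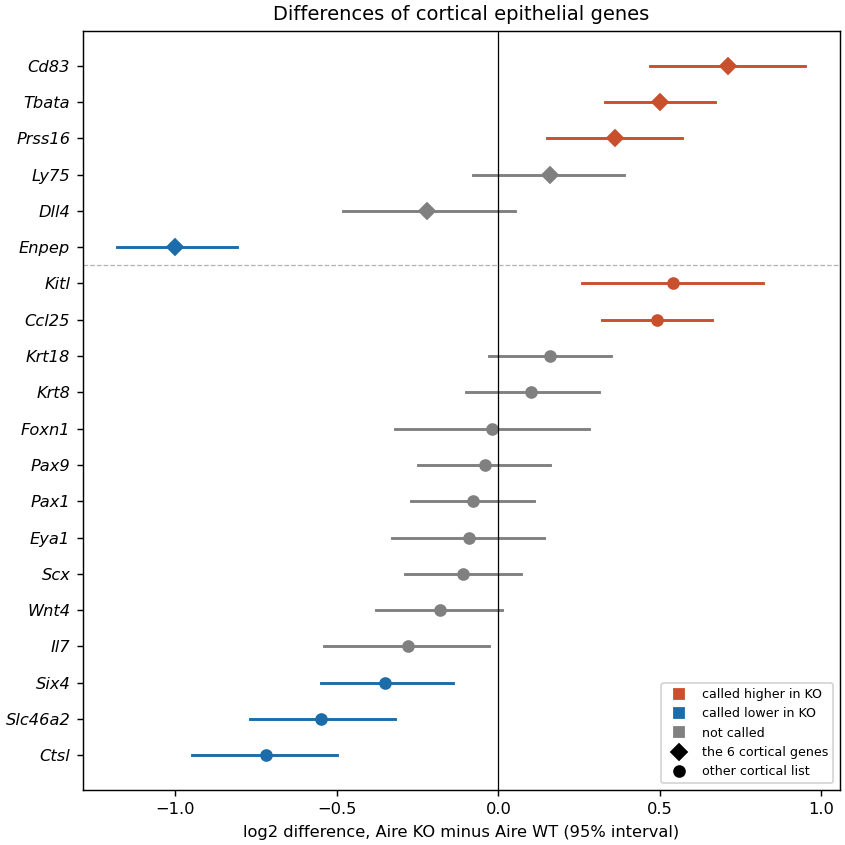
Log2 difference, KO minus WT, with its 95% interval from the limma fit, for the 6 cortical genes (diamonds, above the dashed line) and the 14 tested genes of the wider cortical list (circles), coloured by call. Both sets hold genes called higher and genes called lower, from Enpep at -1.0 to Cd83 at 0.71.

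Genes that work with each of the 6 were read from the same fit. Among 6 tested aminopeptidases related to Enpep, 3 fell and 0 rose: Anpep, a surface enzyme for neutral residues, from 7.61 ± 0.08 to 7.18 ± 0.20, Rnpep by 0.34 and Erap1, which trims peptides for class I, by 0.30. Of these 3 calls, 1 was left with each array centred on its median, and likewise on leaving out WT replicate 1 or 3 or KO replicate 1 or 3. In the angiotensin system, whose peptides Enpep cleaves, 3 of 3 tested genes fell, beside 14.1% of all tested genes. Agt, the precursor, fell from 7.40 ± 0.18 to 6.66 ± 0.17 (limma adjusted p = 0.00071), Ace, the converting enzyme, from 6.67 ± 0.12 to 5.99 ± 0.18, and the receptor gene Agtr2 from 6.44 ± 0.07 to 5.35 ± 0.23 (SD, n = 3). Agtr2 lay above 5.97 in 3 WT and 0 KO mice and Ace in 3 WT and 1 KO mice, so both entered the test through the WT mice, in which they were high, and Agtr1a and Mas1 were too dim to test. Which genes were counted therefore depends on the filter. With no filter, which took in Agtr1a and Mas1, the list median was -0.68. With the stricter filter Ace and Agtr2 were too dim to test, and 1 gene fell.

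The Notch pathway around Dll4 gave 1 rise and 2 falls among 21 tested genes, with a median of 0.00. Its ligand genes Dll1 and Jag1 stood at -0.17 and 0.20 and were not called. Hes1, a target of Notch signalling, fell from 7.42 ± 0.16 to 6.97 ± 0.17 and Nrarp, another target, from 7.52 ± 0.27 to 7.05 ± 0.11. Mfng, which adds sugars to Notch receptors, rose from 8.44 ± 0.01 to 8.73 ± 0.03 (SD, n = 3). Without WT replicate 1, WT replicate 3 or KO replicate 1 a single fall was called. Nrarp was not called in those fits, nor without KO replicate 2. Leaving out KO replicate 1 ended the call of Mfng (limma adjusted p = 0.056).

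The Nedd8 pathway, which Tbata is known to inhibit, had 0 calls by limma among 10 tested genes, and 1 had an unadjusted p under 0.05. With the stricter filter, with an offset of 32 or without WT replicate 1, 1 gene was called lower. Uba3 stood at -0.08 and Nedd8 at 0.10. Of 6 tested genes of class II and its turnover, 1 rose, the peptide exchange factor gene H2-DMa by 0.52 from 9.03 ± 0.16 to 9.55 ± 0.12 (SD, n = 3). An unadjusted p under 0.05 was reached by 4 of the 6. The summed intensity of the list ran from 43040 to 43570 in WT and from 47880 to 50670 in KO. The count of called rises was 4 with an offset of 32, trended robust variances or array weights. Marchf8, the ligase that Cd83 opposes, stood at -0.03 and turned sign in 3 of the alternative fits, and its relative Marchf1 was too dim to test. Of 6 tested peptidases related to Prss16, 1 was called, Dpp9 at 0.24, and it lost the call without any 1 array. Prcp and Dpp7, of the same peptidase family, stood at 0.12 and 0.03. The mannose receptor family, to which Ly75 belongs, had 0 calls by limma among 2 tested genes and 0 at an unadjusted p under 0.05, with Mrc1 at 0.04 and Mrc2 at 0.10.

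**Figure D4:**
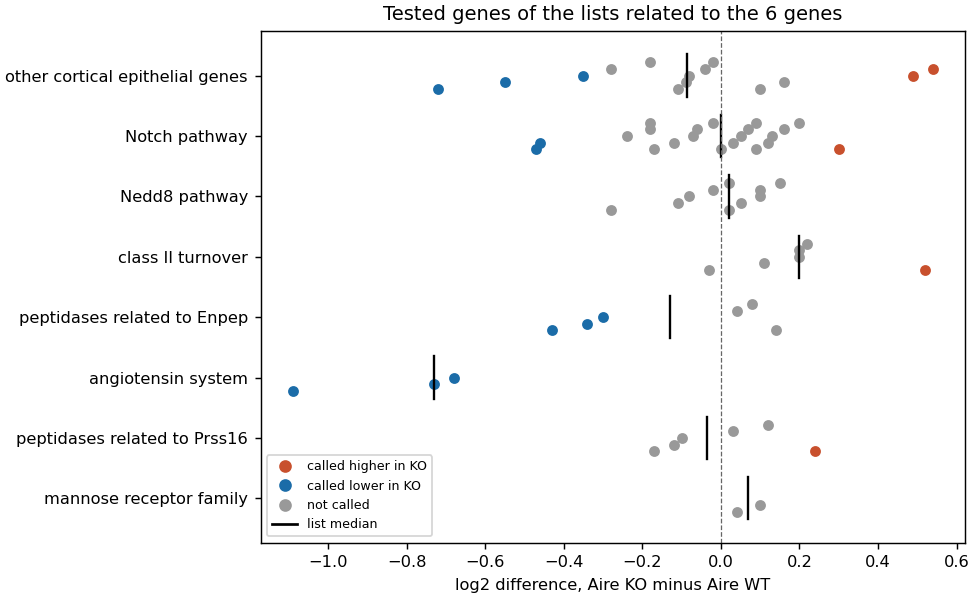
Log2 difference, KO minus WT, of each tested gene in the lists related to the 6 cortical genes, coloured by call, with the list median as a black bar. The 3 angiotensin genes shown lie between -1.09 and -0.68, of which Agtr2 and Ace entered through the WT mice, and Agtr1a (0.22) and Mas1 (0.06) are not shown as too dim, while the Nedd8 list stays within -0.28 and 0.15 with no called gene.

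The genes whose profiles over the 6 arrays were most like each of the 6 were found by the root-mean-square distance between log2 values, each gene centred on its own mean. Closest to Enpep were Clec4f, a lectin gene of liver macrophages, at a distance of 0.029, and the glutathione transferase gene Gstm7 at 0.065, both lower in KO by 0.96. Clec4f lay under 5.97 in every KO mouse, at 5.93, 5.93 and 5.82, and so entered the test through the WT mice. Gstm7 lay under it in KO replicate 3, at 5.87. Only 18 genes lay within 0.1 of Enpep. Closest to Cd83 were Irf8, a transcription factor of dendritic and B cells, at 0.042 and Mfsd9 at 0.049, which rose by 0.75 and 0.73. Irf8 ran from 10.23 to 10.46 in WT and from 10.94 to 11.20 in KO. In all, 38 genes lay within 0.1 of Cd83.

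The other 4 genes had flatter profiles and more near neighbours, 392 for Tbata, 383 for Prss16, 750 for Ly75 and 150 for Dll4 within the same distance. Ero1b, an oxidase of protein folding, and Vopp1 were closest to Tbata, both at 0.026, and rose by 0.47 and 0.52. Fndc11 and Pym1 were closest to Prss16, both at 0.025. Crtam, a lymphocyte receptor gene, at 0.021 and the receptor kinase gene Axl at 0.026 were closest to Ly75, and Lrp8 at 0.053 and Mall at 0.054 to Dll4. With 2 groups of 3 mice, a short distance mainly means a like difference between the groups.

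On the chromosomes, the nearest tested gene on each side of the 6 gave 12 neighbours, of which 3 rose and 1 fell. Of all tested genes, 12% were called higher and 14.1% lower, and the neighbours were not tested against these shares. For Enpep, Cd83, Prss16 and Ly75, other annotated genes that were not tested lay between. On one side of Enpep, with 4 genes between, Elovl6, an enzyme of fatty acid elongation, fell by 0.54 (SE 0.09, limma adjusted p = 0.00085), while Fam241a on the other side, with 11 between, stood at 0.01. Jarid2, a partner of Polycomb, with 18 genes between it and Cd83, rose by 0.41, a call that ended without KO replicate 2 (limma adjusted p = 0.051), and Rnf182, with 2 between, stood at 0.11. Sgpl1 beside Tbata rose by 0.25, a call that 8 of 15 alternative fits lost, and Adamts14 stood at 0.06. The histone genes H2bc22 and H4c9, separated from Prss16 by 38 and 8 genes, stood at 0.25 and 0.12. They were not called, and they belong to a family of similar copies, so their values are uncertain. Marchf7 and Itgb6, separated from Ly75 by 2 and 5 genes, stood at -0.17 and 0.11. Beside Dll4, Gm14207 rose by 0.37, a call that ended without WT replicate 2 or KO replicate 2 (limma adjusted p up to 0.058), and Chac1 stood at 0.15.

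Markers of further cell types were set beside these results. Their counts stand beside 12% called higher and 14.1% called lower over all tested genes, and no list was tested against these shares. Of 11 tested medullary markers 3 fell and 1 rose, with Krt5 at -0.84, Krt14 at -0.44, Epcam at -0.37 and Relb at 0.35, and 1 fell without KO replicate 1. Of 7 tested thymocyte markers 1 fell and 0 rose, Cd3g at -1.40, from 8.51 ± 0.70 to 7.12 ± 0.54 (SD, n = 3). No other had an unadjusted p under 0.05, 2 fell without WT replicate 2, and Cd3g was not called with trended robust variances (limma adjusted p = 0.10). Cd3e stood at -0.01, Cd3d, Rag2, Dntt and Themis lay under 5.97 on every array, and the summed intensity ran from 1038 to 1747 in WT and from 778.5 to 1043 in KO. Of 5 tested macrophage markers 3 fell and 1 rose, with Adgre1 at -1.58, Itgam at -1.29, Csf1r at -0.54 and Cd68 at 0.32. Adgre1 and Itgam were bright enough in the WT mice only, which fixed their direction, whereas Csf1r lay above 5.97 on every array. With the stricter filter 0 fell, because Adgre1, Itgam and Csf1r were then too dim to test. Cd68 was no longer called when any of 5 single arrays was left out, and Mertk and Fcgr1 lay under 5.97 throughout. The macrophage sum ran from 3260 to 3608 in WT and from 3146 to 3237 in KO. Lyz2, the brightest gene of that list, was at 11.33 ± 0.05 in WT and 11.26 ± 0.02 in KO (SD, n = 3) and was not called. Of 6 tested fibroblast markers 1 fell, Col1a1 by 0.63, and 1 rose, Dcn by 0.75, with Pdgfra at 0.08, Pdgfrb at -0.17 and Lum under 5.97 on every array, and the sum ran from 1651 to 1890 in WT and from 1849 to 2342 in KO. The part of these cells in the values of the 6 cortical genes was not tested.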

How the data were processed

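RNA of sorted thymic medullary epithelial cells from 3 Aire WT and 3 Aire KO replicates was amplified, labelled with biotin and hybridised to 6 arrays, per the labels' protocols. The authors deposited RMA intensities, 1 per probe set (per the submitters' processing notes); the version, genome build and any other arrays in that run are not stated in the sources read. RMA subtracts background, equalises the distributions of the arrays and summarises probes by median polish, so a change in total RNA per cell is lost and the fold of dim genes is compressed. The values carry no detection call, and 5.97 is a filter, not a limit of detection.

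Of 35512 probe sets, 21789 have 1 gene symbol in the platform annotation, 1621 have several and 12102 none. Log2 was taken of the deposited intensities, with pseudocount 0, and the 1-symbol probe set of highest mean stood for each of 19938 genes. RefSeq's gene table of GRCm38.p6, used for names and gene order, held the Entrez identifiers of 21698 of the 21789 probe sets with 1 symbol. Genes above the 40th percentile on at least 3 arrays were tested with limma 3.58.1 (lmFit, eBayes, two-sided) in R 4.3.3, with genotype as the single factor, since the labels give no batch, and Benjamini-Hochberg adjustment over 13925 genes. The test was checked on simulated arrays. Figures were drawn with matplotlib 3.10.9.

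The 6 genes, the lists and the tests were chosen with earlier results of these data known. Named are the 6 genes, up to 5 called genes and the first 2 entries of each list, the 2 most alike profiles and the nearest tested gene on each side of every member; Cd74, H2-Aa, H2-Ab1 and H2-Eb1 of the class II list stood at 0.11, 0.20, 0.20 and 0.22 and were not called. Ccr7 and Lyz2 are also named, as the brightest genes of their lists. Some listed genes, and the proteins of the 6 genes, were not analysed here. Alternatives covered the filter, the normalization, the variance model, the choice of probe sets, an added 32, weights for arrays, a block for the replicate number and each array left out.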

Additional observations from a re-analysis of the deposited data

How the results depend on the processing

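Enpep, Cd83 and Tbata kept their direction and their call under all 15 alternatives, Enpep between -1.03 and -0.77, the latter with an offset of 32. Without 1 array each, Foxn1 lay between -0.13 and 0.14, Mrc1 between -0.02 and 0.11, Pdgfra between -0.02 and 0.16, Flt3 between -0.23 and 0.01 and Cd3e between -0.07 and 0.06. In the same fits Prss16 lay between 0.28 and 0.43 (limma adjusted p up to 0.063), Ly75 between 0.08 and 0.27 (0.046 to 0.63), Dll4 between -0.32 and -0.11, and the count of genes higher in KO between 1052 and 1547 instead of 1676, lowest without KO replicate 1. In the wider cortical list 1 gene was higher with the stricter filter (60th percentile), and 5 were lower with array weights. With the replicate number as a block, 1368 genes were higher and 1742 lower, Prss16 kept its call at 0.36 (limma adjusted p = 0.029), and no call among the 6 changed. The deviations of same-numbered mice correlated at -0.018, -0.209 and -0.056, and those of differently numbered mice between -0.095 and 0.149. No pairing by number was seen, and 3 replicates per group are too few to settle whether there was any.

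Signs turned for values near 0 that were never called. With array weights Foxn1 stood at 0.05, Marchf8 at 0.04, Mrc1 at -0.03, Pdgfra at -0.02 and Cd3e at 0.01. Cd3e was at 0.00 after quantile normalization again and 0.00 after centring on the median. Without WT replicate 3, Foxn1 stood at 0.14, Marchf8 at 0.10, Mrc1 at -0.02, Pdgfra at -0.02, Flt3 at 0.01 and Cd3e at 0.06. Without KO replicate 3, Foxn1 stood at 0.08, Dpp7 at -0.02, Cd3e at 0.05 and Adamts14 at -0.01; without WT replicate 2, Dpp7 at -0.02 and Fam241a at -0.02; without KO replicate 1, Marchf8 at 0.04; without KO replicate 2, Mrc1 at -0.01. The cause was not tested. Of 46 other named genes that were called, 30 were called under every alternative in which they were bright enough to test. Some of these, such as Ace, Agtr2, Adgre1, Itgam and Csf1r, were too dim to test with the stricter filter. Without a detection call, signal over background could not be tested for any gene.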
